A study of Dugesia japonica with 4 samples.

Results

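The left and right rims of head blastema sections were compared in Visium spatial transcriptomes of Dugesia japonica, a freshwater planarian flatworm. A section was a connected group of 5 or more tissue spots, and a rim spot was one with at least 1 of its 6 neighbouring array positions off tissue. Rim spots with an array column below the mean column of their section were called left and those above it right. Of the 1216 tissue spots in the series, 822 met this rule, 443 on the left and 379 on the right of 48 sections. Another 7 rim spots lay exactly on the mean column and were left out. Left and right are directions on the array, not sides of the animal.

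All 4 libraries, wells A, B, C and D, belong to 1 group, so the comparison is between places and not between treatments. They are wild-type head blastema, the fresh tissue formed after amputation, taken at a time labelled 5 dpa, frozen, and cut from anterior to posterior into slices 8 µm thick. The labels do not say how many animals were used, whether the wells hold different animals, or which face of the animal lies at which side of a section. A spot covers a small area in which cells of several types can lie. The well is a block in the tests, so differences in level between libraries are set aside. For a plain comparison between places, the p-values measure how far the difference varies between these 4 libraries, a spread that may be technical. Genes are given as gene model identifiers with no symbol in the files, so nothing is said of what a single gene does, and none of 39 planarian marker names (epidermis, neoblast, muscle, neuron, gut, gland, protonephridia, upper or lower side) occurs among the 38792 features. The labelled tissue could therefore not be checked against markers.

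A planarian is a flattened, bilaterally symmetric worm. Its surface is a thin epidermis that is renewed from progenitors of the stem cells, called neoblasts, in the tissue underneath. The lower face carries the cilia on which the animal glides, and gland cells, including adhesive glands along the body margin, discharge through the surface. The rim of a cross-section holds this surface together with the body wall muscle below it.

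Well A held 78 left and 68 right rim spots, well B 81 and 65, well C 142 and 110, and well D 142 and 136. Together the left rim spots carried 4311201 unique molecular identifiers (UMIs, counts of single captured RNA molecules) and the right rim spots 3163878. Each side of a well summed to between 580412 and 1491431 UMIs, least in well A. Left rim spots were deeper in 3 of 4 wells. The left median UMI count was 0.972 times the right one in well A, 1.62 times in B, 1.25 times in C and 1.27 times in D. The mean ratio was 1.28 ± 0.264 (SD, n = 4), and the exact two-sided sign-flip permutation test over wells gave p = 0.25, where 0.125 is the smallest p that 4 wells allow. The sides also differed in shape. In the outer parts of the section's length, outside the central 50% of its rows and here called the ends, lay 56.0% of left but 41.7% of right rim spots. Right rim spots also had fewer neighbouring positions off tissue in each well. The left and right means were 2.63 and 2.49 in well A, 2.60 and 2.51 in B, 2.41 and 2.24 in C, and 2.40 and 2.18 in D.

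**Figure D1:**
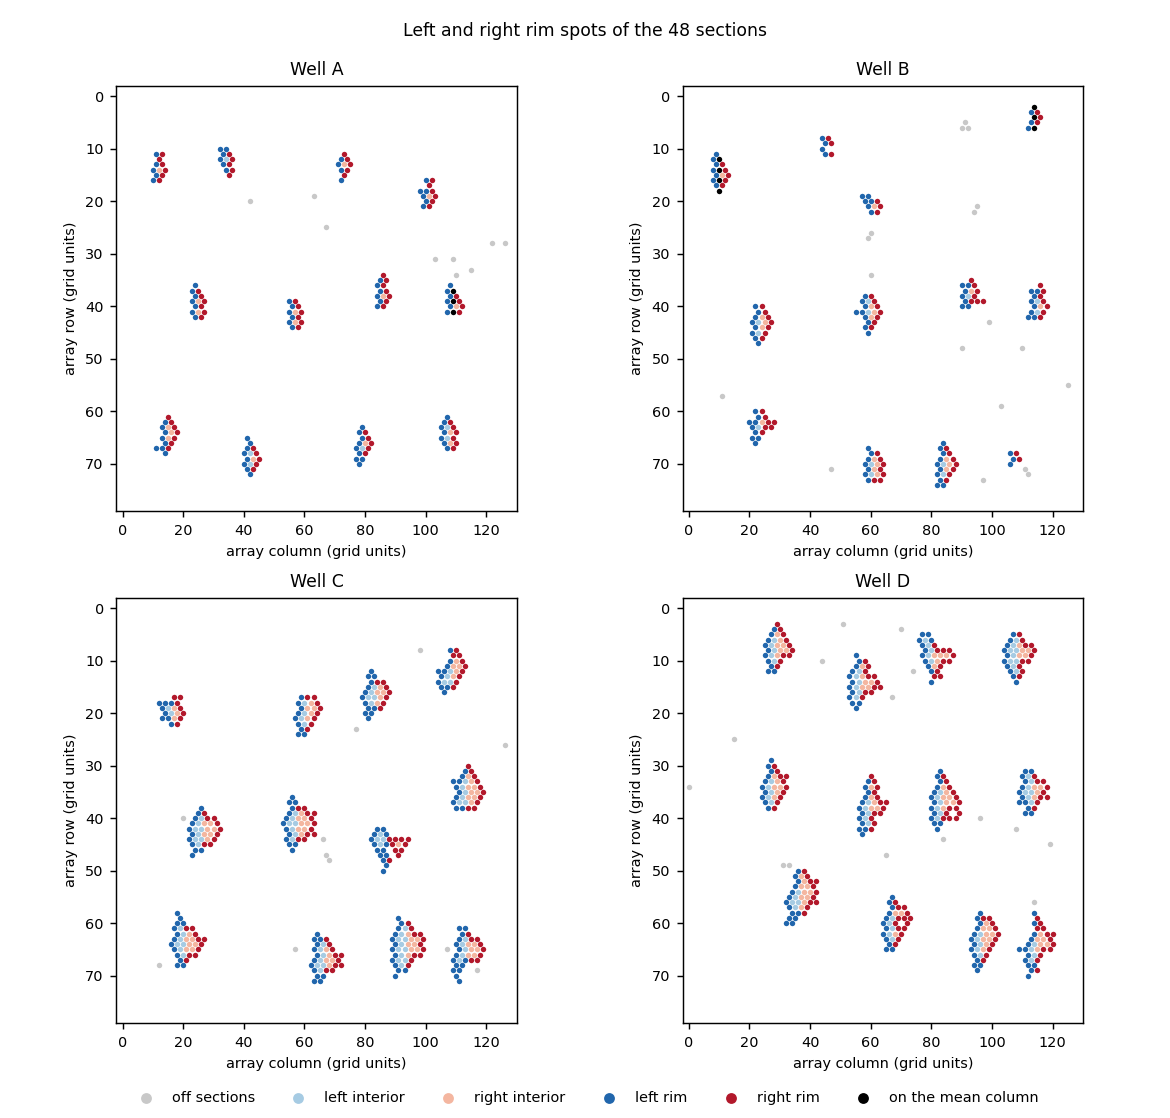
Tissue spots of the 4 wells on the array grid, with array column on the x axis and array row on the y axis, coloured by place. The 443 left rim spots (dark blue) include more of the section tips than the 379 right rim spots (dark red).

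The question was which genes differ between these rims. The left rim expressed 372 genes at a higher level than the right rim, and the right rim expressed 357 genes at a higher level than the left. These 729 genes were 9.67% of the 7539 tested, 4.93% for the left and 4.74% for the right. Counts were summed per well and side and tested with edgeR's quasi-likelihood test with the well as block, and genes with a Benjamini-Hochberg p under 0.05 were called. Of these, 390 (5.17% of all tested) differed at least 2-fold, 184 towards the left and 206 towards the right. Of the called genes, 370 of the 372 left genes and 313 of the 357 right genes leaned the same way in 4 of 4 wells. The same wells chose these genes, so this agreement describes them and is no separate check. In sums over spots, more cells of a type and more RNA per cell cannot be told apart. Of the right genes, 32 had no UMI at either rim in well A. Genes called on the right were the more abundant ones, with a median level of 110 CPM (counts per 1e+06, with library sizes adjusted by TMM factors), against 47.2 CPM for the left genes and 37.3 CPM for all genes tested.

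The split between the sides depended on the scale. With TMM the median log2 difference of all tested genes was 0.00 and 51.0% of the calls were on the left. With library totals the median was 0.20, and the calls were 721 left and 224 right (76.3% left). Limma on means over spots gave 785 and 214 (78.6% left) and DESeq2 145 and 238 (37.9% left). All values below are on the TMM scale unless stated. The counts also fell when well B, C or D was left out. They were 194 left and 180 right without well B, 170 and 242 without well C, and 164 and 158 without well D, against 360 and 374 without well A. Left and right spots were also matched by UMI count to within 10% in each well (306 spots a side). Then 387 genes were higher on the left and 390 on the right. Of the 729 genes called with all rim spots, 673 were tested with matched spots and 621 were called again. Neither position along the length nor the number of positions off tissue was matched. With only rim spots that had at least 2 positions off tissue, 288 genes were called on the left and 223 on the right. Whether the lower number of such positions on the right adds to the genes called there was not tested. The calls were fewer, 107 and 66, when the midpoint of the column range divided each section instead of the mean column. This change moved 19 rim spots from right to left and left out 48 that fell on the midpoint.

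The rim was next divided along the other array axis, at the mean row of each section, to set a second contrast beside the first. This split left out rim spots on the mean row instead of those on the mean column, so the spots used were nearly but not exactly the same. No gene was called between the lower-row and the higher-row rim by edgeR, 0 of 7570 tested (0%), with a smallest adjusted p of 0.469, and DESeq2 called 0. At an unadjusted p under 0.05 there were 337 genes, 4.45% of those tested, against 1692 genes or 22.4% between left and right. Among genes with a mean of at least 50 CPM, 1 of 2996 differed by 2-fold or more between the lower-row and higher-row rims and 198 of 2962 between the left and right rims. The left against right log2 ratios of single wells correlated over these 2962 genes at r = 0.539 to 0.732 between wells. Those between lower and higher rows correlated at -0.161 to 0.019. These correlations run across genes, which are not independent of each other.

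**Figure D2:**
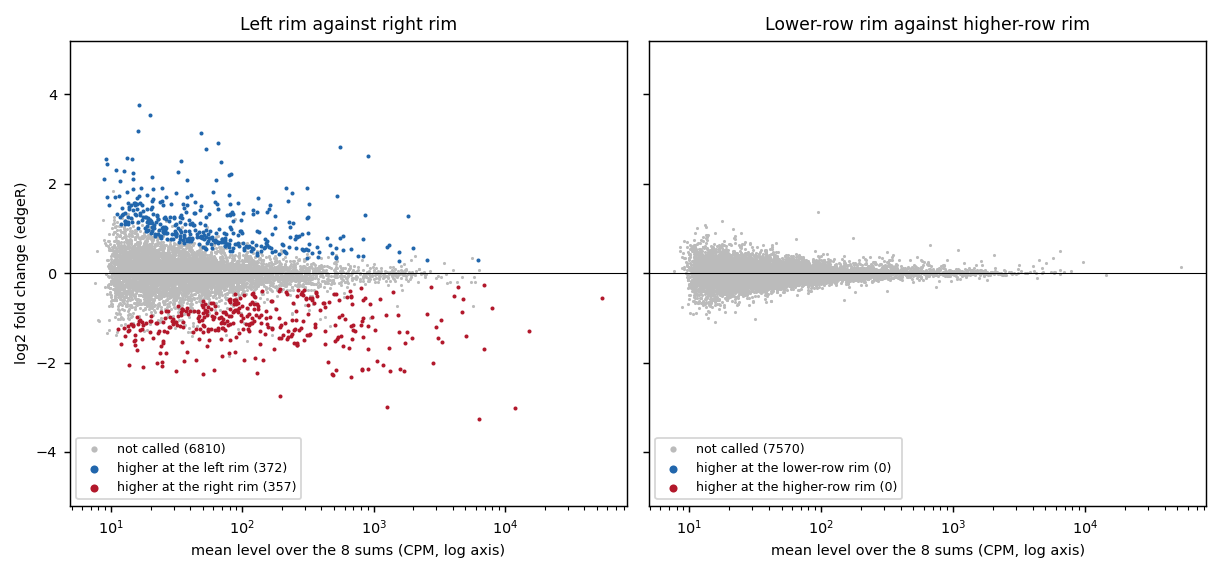
Log2 fold change of each tested gene against its mean level in CPM (log axis), for left against right rim and for lower-row against higher-row rim. Coloured points are called genes, 372 left and 357 right in the first panel and 0 in the second.

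DJKW.10198 showed the largest difference towards the left among the 177 left genes that leaned left in every well and had a mean of at least 50 CPM. The left rims of wells A to D held 72.3, 102, 141 and 144 CPM. The right rims held 9.96, 7.36, 13.9 and 29.6 CPM in the same order, so all left values lay above all right values. This is a 7.50-fold difference, or 2.91 ± 0.22 on the log2 scale (SE, edgeR adjusted p = 6.18e-05). It was higher on the left in 46 of 48 sections, higher on the right in 1 and not detected at the rim of 1. The difference was present along the whole rim, at 3.19 ± 0.33 in the middle of the length and 2.63 ± 0.25 at the ends (log2, edgeR adjusted p = 3.19e-04 and 3.15e-04 in separate fits).

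DJKW.26548 came second, with 765 CPM at the left rim of well A, 597 in B, 1196 in C and 1327 in D. Its right rim held 197, 46.0, 186 and 139 CPM, again without overlap between the sides. The difference was 7.06-fold (log2 2.82 ± 0.22, SE, edgeR adjusted p = 6.71e-05). This gene was not spread along the left rim but concentrated at the ends of the sections. Its level was 822 ± 274 CPM over the whole lower-row rim and 523 ± 166 over the whole higher-row rim (SD, n = 4). The lower rows were higher in each well, but this difference was not called (edgeR adjusted p = 0.469). Whether the lower-row and higher-row ends differ was not tested. At the ends its level was 1782 ± 549 CPM on the left and 268 ± 137 on the right, and in the middle it was 42.4 ± 11.9 and 40.8 ± 27.2 (SD, n = 4). The left against right log2 difference was 2.78 ± 0.22 at the ends alone (edgeR adjusted p = 1.35e-04) and 0.08 ± 0.33 in the middle alone (edgeR adjusted p = 0.93). The test of the difference between middle and ends gave -2.62 ± 0.49 and missed the threshold (edgeR adjusted p = 0.125). The gene was higher on the left in 37 of 48 sections and higher on the right in 10. The 10 richest of the 822 rim spots carried 43.7% of its UMIs at the rim, against 10.5% for DJKW.10198.

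On the right, DJKW.6593 had the largest difference of the 237 right genes that met the same rule. Wells A to D held 811, 25366, 10465 and 8573 CPM at the right rim. At the left rim it was 14.7, 1201, 2977 and 1659 CPM. Levels differed more between wells than for the left genes, and the right rim of well A lay below the left rims of the other wells, but the right exceeded the left within each well. The right exceeded the left 9.62-fold (log2 left minus right -3.27 ± 0.49, SE, edgeR adjusted p = 0.0032). It was higher on the right in 45 of 48 sections.

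DJKW.24241 followed, with 810, 42118, 25018 and 15731 CPM at the right rims of wells A, B, C and D. The left rims held 48.2, 2252, 6954 and 3173 CPM, so again the sides overlapped across wells and not within them. The right exceeded the left 8.13-fold (log2 left minus right -3.02 ± 0.37, SE, edgeR adjusted p = 0.00102). It was higher on the right in 44 of 48 sections, and 3 of the 4 exceptions lay in well A, where its level was low. For both right genes the difference was larger in the middle of the rim than at the ends, with log2 values of -4.60 ± 0.31 and -2.38 ± 0.37 for DJKW.6593 and -4.30 ± 0.21 and -2.17 ± 0.31 for DJKW.24241 (edgeR, separate fits). The test of this difference missed the threshold for both genes (edgeR adjusted p = 0.38 for each). The 10 richest rim spots carried 28.4% of the rim UMIs of DJKW.6593 and 27.0% of those of DJKW.24241.

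Because these genes were ranked on the same counts, direction was also read in wells that played no part in the choice. Genes were called on 3 wells at a time and their share of all UMIs was measured at both rims of each section of the fourth well. Sections of the same well share a library, so section counts here and above are not counts of independent replicates. The shares are of library totals, on which most genes leaned to the left, and no share of all genes per section was set beside them. The genes called on the left took a larger share at the left rim in 48 of 48 sections. Their number was 360 for well A, 194 for B, 170 for C and 164 for D, and the genes called were 9.55%, 4.85%, 5.71% and 4.43% of those tested in the 4 fits. They took 9.59% of the UMIs of the left rim and 5.82% of those of the right rim of well A. In the same order the shares were 4.01% and 1.99% for B, 3.23% and 1.52% for C, and 2.98% and 1.33% for D. The genes called on the right took a larger share at the right rim in 45 of 48 sections. The 3 exceptions were 1 section each of wells B, C and D, of 7, 30 and 40 spots. These genes took 18.4% of the right rim UMIs and 10.2% of the left rim UMIs of well A. The shares were 20.4% and 7.86% for B, 26.6% and 18.2% for C, and 23.7% and 13.7% for D, so the right was higher in every well.

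**Figure D3:**
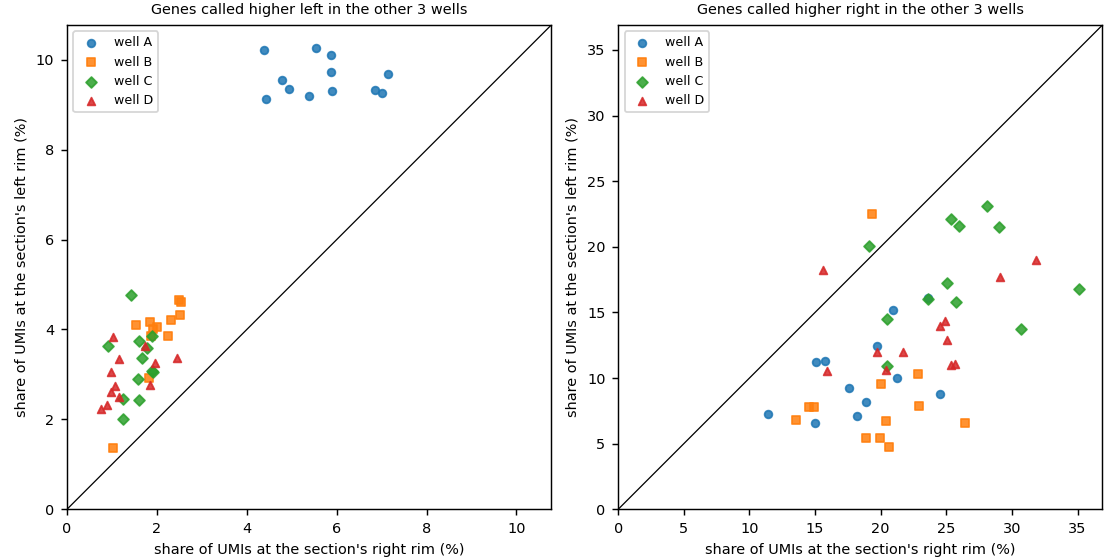
Share of a section's rim UMIs taken by genes called in the other 3 wells, left rim (y axis, %) against right rim (x axis, %), 1 point per section, with the line of equal shares. All 48 sections lie above the line for the left genes and 45 of 48 below it for the right genes.

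Gene by gene, over genes with at least 10 UMIs at the rims of the well that had not been used, 92.9% to 99.5% of the left genes were higher on the left there. Of all genes tested, 58.6% to 72.9% were. For the right genes the values were 90.4% to 97.5%, against 27.1% to 41.4% of all genes. These shares use library totals, on which most genes lean to the left. The lowest value for the left genes came from well A and that for the right genes from well B.

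The genes of the 2 rims differed in where else they were found. Levels were taken in 4 places per well, the left and right rim and the left and right interior, where interior spots have tissue on all 6 sides. Of the 357 left genes with a value in all places, 300 (84.0%) had their highest mean level at the left rim itself and 54 in the left interior. Of the 357 right genes, 41 (11.5%) were highest at the right rim and 307 (86.0%) in the right interior. Among all 7309 genes tested at the rim and measured in these places, 32.7% were highest at the left rim, 34.0% in the right interior and 15.8% at the right rim. The rim levels are those that chose the genes, so these shares describe them. In wells not used to call them, the right genes took 22.3% ± 3.63 of the UMIs of the right rim and 29.6% ± 7.89 of those of the right interior. They took 12.5% ± 4.49 at the left rim and 19.8% ± 7.60 in the left interior. For the right genes these are means over wells (SD, n = 4). For the left genes well A, whose list of 360 genes was the longest, stood apart and is given by itself. In well A they took 9.59% at the left rim and 9.12% in the left interior, nearly level, and 5.99% in the right interior. In wells B, C and D they took 4.01%, 3.23% and 2.98% at the left rim, above the 1.98%, 1.47% and 0.956% of the left interior and the 1.28%, 0.852% and 0.468% of the right interior. The named right genes were unlike most of the right genes in this respect, since DJKW.6593 and DJKW.24241 stood highest at the right rim itself in each well.

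DJKW.10198 fell off from the left surface inwards in every well. Its level was 107 ± 32.8 CPM at the left rim, 33.2 ± 5.32 in the left interior, 8.57 ± 7.98 in the right interior and 13.9 ± 9.13 at the right rim. Along the width, divided into 5 equal bins from left to right, it stood at 155 ± 45.3, 79.2 ± 10.3, 21.2 ± 8.46, 9.80 ± 5.49 and 7.84 ± 3.96 CPM, here scaled to library totals. DJKW.24241 ran the other way, at 958 ± 672, 3540 ± 3074, 8466 ± 6785, 14208 ± 12961 and 15778 ± 12229 CPM. The wide SDs reflect whole wells, with well A lowest.

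**Figure D4:**
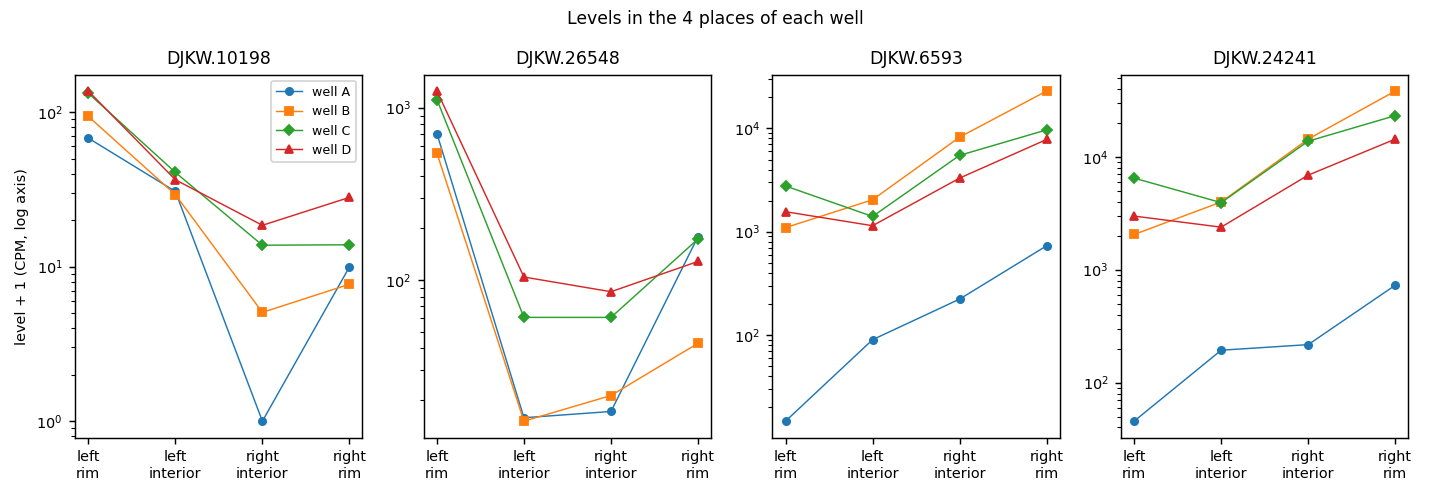
Level plus 1 in CPM (log axis) of the 4 named genes at the left rim, left interior, right interior and right rim, 1 line per well. DJKW.10198 and DJKW.26548 are highest at the left rim, and DJKW.6593 and DJKW.24241 are highest at the right rim in all 4 wells.

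The interior spots, which the rim comparison does not use, leaned in the same direction. Between left and right interior 305 of 4824 genes were called (6.32%), 101 of them at 2-fold or more (2.09%), with 65 higher on the left (1.35%) and 240 on the right (4.98%). The interior of well A holds only 6 left and 16 right spots. Of the left rim genes, 153 passed the filter on low counts inside, and 26 of these were called on the left and 0 on the right. Of the right rim genes, 337 passed it, and 174 were called on the right and 2 on the left. The median interior log2 difference was 0.39 over the 153 left genes and -0.65 over the 337 right genes, against 0.01 over the 4783 genes tested in both zones. The 202 genes called in both zones were 27.7% of the rim calls and 66.2% of the interior calls. Rim and interior spots are neighbours, and RNA spreading between them was not tested as a source of the shared direction. Interior counts fell to 16 left and 78 right without well C and to 20 and 80 without well D, and they were 172 and 354 without well A and 31 and 156 without well B. With library totals they were 527 and 99, so which side had more interior calls turned with the scale.

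Whether the left against right difference was of another size at the rim than inside was tested as an interaction. Only the well was a block here and in the test of middle against ends below. The p-values of these tests therefore also take in how zones, parts and sides each vary between wells. It was called for 9 of 7640 genes (0.118%), with 621 at an unadjusted p under 0.05. For 5 genes (0.0654%) left minus right was larger at the rim and for 4 (0.0524%) smaller. DESeq2 called 13 and 4. DJKW.3481 led by the naming rule, at 1435 ± 554 CPM at the left rim, 243 ± 136 at the right rim, and 159 ± 75.1 and 166 ± 105 in the left and right interior (SD, n = 4). The interaction was 2.75 ± 0.31 (log2, SE, edgeR adjusted p = 1.29e-04). DJKW.26548 behaved alike, with 903 ± 332, 129 ± 62.7, 47.8 ± 42.4 and 45.1 ± 32.6 CPM in the same order and an interaction of 2.63 ± 0.42 (edgeR adjusted p = 0.00849). For the 4 genes with a smaller value at the rim, DJKW.18115 alone met the rule, with an interaction of -1.85 ± 0.33 (edgeR adjusted p = 0.0303), but it missed the threshold with DESeq2 (adjusted p = 0.472). Its sections held 1 UMI in well A, in the interior, so the shared direction of that well rests on a single UMI. In well B its rim was higher on the left, at 7.39 CPM against 3.68, and the call rests on wells C and D. Without well D no gene was called. A gene that missed the threshold is not shown to have the same difference in both zones.

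The rim was then divided along its length. In the middle of the rim alone 352 genes were higher on the left and 383 on the right of 5619 tested, although this part holds 195 of the 443 left and 221 of the 379 right spots. At the ends alone the numbers were 53 and 90 of 5081 tested. Of the called left genes that were tested in both parts, 198 of 231 had the larger difference in the middle, and so did 276 of 299 right genes. The same share was not taken over all genes tested, so whether the called genes are unusual in this cannot be told. Called genes not tested in both parts are left out. The median log2 difference of left genes was 1.17 in the middle and 0.59 at the ends, and that of right genes -1.49 and -0.67. These counts and medians are over genes chosen on both parts together and carry no test. A difference between middle and ends was called for 2 of 6147 genes (0.0325%), 1 larger in the middle (0.0163%) and 1 larger at the ends (0.0163%), with 459 at an unadjusted p under 0.05. No gene was called without well C or without well D, and DJKW.19232 was also lost without well A.

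These 2 genes moved in opposite ways. DJKW.19232 was a left gene of the middle. There it stood at 308 CPM on the left and 46.1 on the right in well A, 74.9 and 11.9 in B, 140 and 24.7 in C, and 117 and 22.7 in D. At the ends it was 44.4 ± 18.4 CPM on the left and 41.1 ± 26.0 on the right (SD, n = 4), and those groups overlap. The difference between middle and ends was 2.32 ± 0.37 (log2, SE, edgeR adjusted p = 0.0424). DJKW.3481 was a left gene of the ends, at 2258 CPM on the left and 445 on the right in well A, 1779 and 153 in B, 3525 and 819 in C, and 3538 and 339 in D. In the middle it was 134 ± 49.7 on the left and 133 ± 82.8 on the right, and the difference between middle and ends was -2.69 ± 0.35 (edgeR adjusted p = 0.0071). Few left genes shared this second pattern, since 5 of the 231 left genes had a log2 difference under 0.25 in the middle and 17 had one at the ends. Here too no share over all genes tested was taken. The ends hold more left than right spots, 248 against 158, so for genes of the ends position along the length and side cannot be told apart in full.

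**Figure D5:**
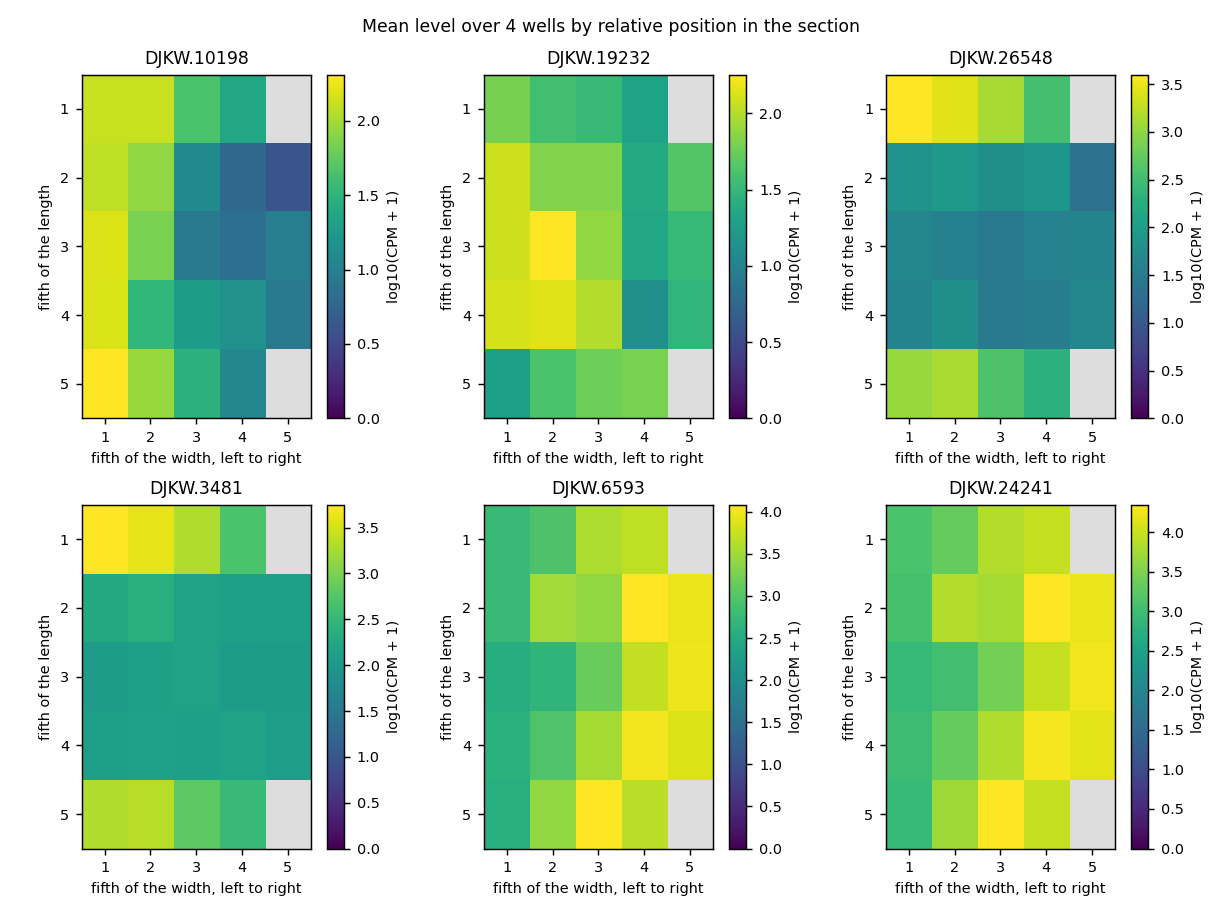
Mean level over 4 wells, as log10(CPM + 1), in 5 bins of relative width (x axis, left to right) and 5 bins of relative length (y axis) over all sections. Grey bins hold fewer than 20 spots. DJKW.10198 follows the left side over the whole length and DJKW.19232 the left of the middle. DJKW.26548 and DJKW.3481 follow the ends on the left, more so in the first bin of the length. DJKW.6593 and DJKW.24241 follow the centre and right. Their highest bin is the middle one of the width in the last bin of the length (12098 and 22064 CPM).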

How the data were processed

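Visium libraries of 4 wells were analysed. Per the file headers, the deposited matrices hold raw UMI counts per feature and spot, as written by Space Ranger 2.0.1. Seurat is named in the submitters' processing notes without a step. The genome build, like the annotation, is not given in the sources used here. Spots, gene lists and rules were chosen with earlier results of these data known. Sections, rims and sides came from spot positions alone. Counts were summed per well and side (8 columns, or 16 for an interaction) and tested by the quasi-likelihood test of edgeR 4.0.16 (R 4.3.3) after filterByExpr and TMM, with the well as block because both sides lie on the same sections. The SE is the size of the log2 difference divided by the square root of the F statistic. Genes were named if called, in 1 direction in 4 of 4 wells and averaging 50 CPM or more, by size of fold and at most 2 per direction because the files pair no names with identifiers. Log ratios of single wells add 1 CPM. Scripts were tested on simulated data. Alternatives used DESeq2 1.42.0, limma 3.58.1 (log2 of counts scaled to 10000 per spot plus 1), other filters, sides, rims and sections, and wells left out. Of the barcodes, 211 occur in over 1 library, since Visium barcodes mark positions.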

Additional observations from a re-analysis of the deposited data

Results flagged for a closer look

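Of 17 sets of 4 well values checked for a well far from the other 3, none held one by Dixon's criterion, while chance gives about 0.85. This covers those sets only and does not mean that no well stood apart. The held-out left genes took 9.59% of left rim UMIs in well A, against 4.01%, 3.23% and 2.98% in B, C and D. For DJKW.18115 the rim against interior difference was -3.98 (log2) in well A, against -1.70, -1.92 and -1.91. The results below were picked out because the left against right difference itself differed between parts of the section in edgeR's interaction test.

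Between rim and interior, left minus right was larger at the rim for DJKW.3481 (2.75, log2), DJKW.26548 (2.63), DJKW.24604 (3.22), DJKW.6858 (1.14) and DJKW.28678 (1.31), in 4 of 4 wells for each. The last 3 were named after their values were seen. DJKW.6858 and DJKW.28678 had small differences of either sign. At the rim these were 0.49 and 0.50 (edgeR adjusted p = 0.0318 and 0.0368). Inside they were -0.52 and -0.64 and were not called (edgeR adjusted p = 0.102 and 0.114). DJKW.24604 was not tested inside.

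Left minus right was smaller at the rim for DJKW.16686 (-3.0), DJKW.28572 (-2.53), DJKW.22969 (-1.96) and DJKW.18115 (-1.85), the first 3 named after their values were seen. The fitted rim difference of all 4 was towards the right (-2.17, -1.79, -1.77 and -1.31), which wells C and D show and the others do not share throughout. The left rim was the higher one for DJKW.28572 in wells A (4.02 CPM against 1.66) and B (1.85 against 0), and in well B for DJKW.22969 (8.32 against 1.84) and DJKW.18115 (7.39 against 3.68). In well C, DJKW.16686 was higher on the left in 7 sections and on the right in 5. DJKW.16686 and DJKW.28572 were higher on the left inside (0.99 and 0.87, edgeR adjusted p = 0.00528 and 0.0281), and they are the 2 genes called in opposite directions in both zones. The direction of the interaction was shared by 3 of 4 wells for DJKW.16686, but in well B on a single UMI, and the gene was not detected in the sections of well A. It was shared by 2 of 4 wells for DJKW.28572 and DJKW.22969. It was shared by 4 of 4 wells for DJKW.18115, but in well A on a single UMI. All 4 genes were low in wells A and B, where no place held more than 28.2 CPM of any of them, while the left interior of well D held 1058, 161, 569 and 232 CPM of DJKW.16686, DJKW.28572, DJKW.22969 and DJKW.18115.

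Between the middle and the ends of the rim, the difference was larger in the middle for DJKW.19232 (2.32) and smaller for DJKW.3481 (-2.69).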

How the results depend on the processing

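No alternative run for the rim comparison called one of its genes with the other sign. Of 64 values of the 4 named rim genes, 59 stayed past the threshold with their direction. The exceptions were all 4 genes without the replicate block and DJKW.26548 in the middle of the rim only. Over the named genes of all comparisons, 136 of 193 values stayed past the threshold, 57 lost it and 0 reversed. The cause was not tested where none is given. Genes higher at the left rim (372) moved to 721 with library totals, 145 with DESeq2, 607 with no filter on low counts (more genes tested), 4 with no replicate block, 785 with limma on means over spots, 107 with the midpoint of the column range and 53 at the ends only. Those at the right rim (357) moved, in the same order, to 224, 238, 641, 1, 214, 66 and 90, and to 223 with at least 2 positions off tissue. The midpoint moved 19 rim spots from right to left and left out 48 that fell on it. Leaving out 1 well gave 164 to 360 left and 158 to 374 right. Between lower and higher rows (0 and 0) the counts were 22 and 5 with no filter on low counts, and 0 to 1 and 0 to 2 when 1 well was left out. The replicate block pairs the sides of each well by design. Without it the interior counts (65 left, 240 right) fell to 0 and 0. They were 527 and 99 with library totals, 19 and 145 with DESeq2, and 16 to 172 and 78 to 354 when 1 well was left out. For rim against interior (5 larger, 4 smaller) the counts were 2 and 2 with totals, 13 and 4 with DESeq2, 35 and 62 with no filter, 0 and 0 without the block, 7 and 7 with well and zone together as block, and 0 to 9 and 0 to 16 when 1 well was left out. For middle against ends (1 larger, 1 smaller) they were 1 and 2 with DESeq2, 19 and 152 with no filter, 0 and 0 without the block, 1 and 3 with well and part together as block, and 0 to 1 and 0 to 4 when 1 well was left out. The ends alone and the joint blocks were chosen after seeing the data. The left to right ratio of median UMIs stayed within its SD in the settings run.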

Other observations

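By the naming rule, DJKW.1764 led the genes higher in the left interior and DJKW.7323 those higher in the right interior, and both differed at the rim in the same direction. DJKW.1764 differed by 1.27 ± 0.17 inside and by 1.27 ± 0.13 at the rim (log2, left minus right, SE, edgeR adjusted p = 5.76e-04 and 3.39e-04). DJKW.7323 differed by -1.86 ± 0.24 inside and by -2.99 ± 0.29 at the rim (edgeR adjusted p = 5.76e-04 and 3.04e-04), and the interaction for DJKW.7323 missed the threshold (edgeR adjusted p = 0.521). Identifiers of the Maker series made up 4 of the 372 left genes (1.08%) and 7 of the 357 right genes (1.96%), against 1.63% of all genes tested. The genes called on the right supplied 28.1% ± 6.22 of the right rim UMIs and 16.5% ± 4.60 of the left rim UMIs, and those called on the left 3.75% ± 1.11 and 7.18% ± 1.57 (SD, n = 4), as a description of genes chosen on these counts.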
